A study of Mus musculus with 6 samples.

Results

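The Schlafen genes are a family that took its name from the German word for sleeping, after members that slowed the growth of thymocytes. All members share a Schlafen core domain, and the long members, among them Slfn5, Slfn8 and Slfn9, also carry a helicase-like domain. Schlafen genes are known as targets of interferons, and human members act on tRNA and restrict viruses. The mouse genes are known mostly from T cells and myeloid cells. In the array's annotation 7 Schlafen genes were taken as members by their gene symbols, Slfn1, Slfn2, Slfn3, Slfn4, Slfn5, Slfn8 and Slfn9, among 19087 genes in all. They were measured by 9 features of the array, 2 each for Slfn3 and Slfn5 and 1 each for the other 5.

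The neurons were mouse sympathetic neurons in culture, and the study's title concerns their protection from apoptosis by interferon-gamma (IFN-gamma), a cytokine of T cells and natural killer cells. Neurons treated with 500 U/ml IFN-gamma for 24 h gave 3 arrays, and control neurons without it at the same 24 h gave the other 3. The RNA of the neurons was labelled with Cy5, and every array carried untreated sympathetic cervical ganglia of postnatal day 5 in Cy3 as a common reference. Genotype, strain and age of the cultured neurons are not given in the sources used here. Each value below is a log2 ratio of neuron RNA to this ganglion RNA, so the ratios of different genes say nothing of which gene has more RNA. The log2 base and the direction were inferred. With the opposite direction Irf1, Tap1 and Psmb9, known targets of IFN-gamma that were higher here by 2.29, 3.82 and 3.27, would have been lower in treated neurons. In the annotation used here, 10 of 12 sympathetic neuron markers were measured. None passed the threshold, against 1.12% of all genes called higher and 0.021% called lower. The noradrenaline enzyme gene Th had ratios from -0.12 to 0.30 on IFN-gamma arrays and from -0.05 to 0.41 on Control arrays. The labels do not say whether replicate arrays stand for separate cultures, so each p refers to the variation among these arrays, part or all of which may be technical. With 3 arrays a group, precision is low throughout.

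Among the 7 members, Slfn9, Slfn8 and Slfn5 had the largest differences, and Slfn9 was the single one that passed the test over all genes. Slfn9 rose 7.10-fold with IFN-gamma, while Slfn8 was 5.61 times, Slfn5 4.002 times and the short member Slfn2 2.21 times the control level without passing. For these 4 genes every IFN-gamma array lay above every Control array. Slfn1, Slfn3 and Slfn4 had overlapping groups. Of the 7 members, 1 was called higher (limma, adjusted p under 0.05), against 1.12% of all genes, and 0 were called lower, against 0.021%. At an unadjusted p under 0.05, 4 members were higher, against 5.27% of all genes, and 1 was lower, against 2.68%. The groups did not overlap, with IFN-gamma above, in 4 members and in 8.08% of all genes, and with IFN-gamma below in 0 members and 5.58% of all genes. A difference above 1 on the log2 scale was found in 4 members and in 2.39% of all genes. The median difference was 1.14 over the 7 members and 0.01 over all genes. In RNA from whole cultures, a change in the number of cells of a type and a change in RNA per cell cannot be told apart.

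**Figure D1:**
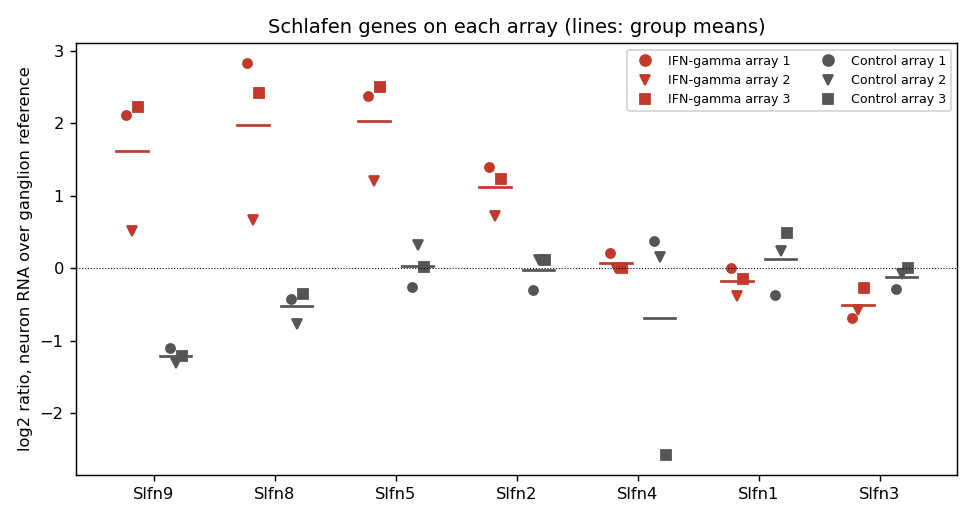
Log2 ratio of neuron RNA over ganglion reference for the 7 Schlafen genes on each array, with IFN-gamma in red to the left of Control in grey, and lines at the group means. All IFN-gamma arrays lie above all Control arrays for Slfn9, Slfn8, Slfn5 and Slfn2, with IFN-gamma array 2 the lowest of its group, and a single Control array pulls down the mean of Slfn4.

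The sequences before the start sites are shown for the 4 genes whose groups did not overlap, because 3 of them, Slfn9, Slfn8 and Slfn5, share a motif there that the fourth, Slfn2, lacks. Interferon-stimulated response elements are DNA sites that transcription factors bind after interferon, and their core was searched as GAAANNGAAA on both strands. The windows held 250 bases before and 50 after each RefSeq start site (GRCm38.p6). All 7 members had a window, and those of Slfn9, Slfn8 and Slfn5 held the motif. Of all 27025 genes with a window, 3.99% hold it in any of theirs, and of all 32851 windows 3.44% hold it. The 170 bases just before the start site of Slfn9, Slfn8 and Slfn2 follow, and 30 bases around the match for Slfn5, whose window lies inside the annotated span of the gene. They are given 5′ to 3′ on the strand of the gene, with the motif in capitals. They lie at chr11:82991831-82992000 on the minus strand for Slfn9, chr11:83020811-83020980 on the minus strand for Slfn8, chr11:82951937-82951966 on the plus strand for Slfn5 and chr11:83064942-83065111 on the plus strand for Slfn2.
Slfn9: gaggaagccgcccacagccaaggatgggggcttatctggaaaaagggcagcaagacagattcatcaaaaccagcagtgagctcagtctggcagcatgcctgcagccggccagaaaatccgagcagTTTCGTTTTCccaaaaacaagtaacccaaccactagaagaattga
Slfn8: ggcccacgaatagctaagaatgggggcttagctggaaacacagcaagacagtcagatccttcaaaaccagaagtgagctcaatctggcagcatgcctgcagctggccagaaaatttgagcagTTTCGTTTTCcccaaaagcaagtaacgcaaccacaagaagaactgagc
Slfn5: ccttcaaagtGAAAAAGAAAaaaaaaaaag
Slfn2: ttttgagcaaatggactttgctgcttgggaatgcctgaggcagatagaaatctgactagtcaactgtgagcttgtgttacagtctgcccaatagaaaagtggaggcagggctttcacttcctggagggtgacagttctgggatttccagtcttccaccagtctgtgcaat

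Counted back from the start site, with the last base before it as -1, the motif lay at -45 to -36 in Slfn9, at -48 to -39 in Slfn8 and at -155 to -146 in Slfn5. In Slfn9 and Slfn8 it was the same run of letters on the other strand. RefSeq lists a second start site for Slfn8, from which the same run is at -136 to -127. The 250 bases before the start sites of Slfn8 and Slfn9 were identical in 80.0% of aligned columns, against 42.5% to 49.1% for the other 20 pairs of members. In Slfn5 the match stands at the edge of a run of A. A match describes these letters and not a bound site, and the windows of Slfn1, Slfn2, Slfn3 and Slfn4 say nothing of binding outside them.

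Slfn9, a long Schlafen gene, had ratios of 2.12, 0.51 and 2.23 on IFN-gamma arrays 1, 2 and 3, against -1.11, -1.31 and -1.21 on Control arrays 1, 2 and 3. The ratios to the ganglion were above 0 on every IFN-gamma array and below 0 on every Control array. Because dyes were not swapped, a dye effect and a difference between neurons and ganglion cannot be told apart in these ratios. The mean was 1.62 ± 0.96 in IFN-gamma neurons and -1.21 ± 0.10 in Control neurons (SD, n = 3 each). The difference of 2.83 ± 0.45 (SE) passed the threshold narrowly (limma, adjusted p = 0.0492), with a 95% interval of 3.36-fold to 15.0-fold, and ranked 86 among all genes. The Control arrays of Slfn9 were close together, and IFN-gamma array 2 lay far below the other treated arrays. The call was lost without IFN-gamma array 1 (limma, adjusted p = 0.199), IFN-gamma array 3 (0.190), Control array 1 (0.223), Control array 2 (0.188) or Control array 3 (0.193), and it was kept without IFN-gamma array 2 (0.000634). It was also lost with scale normalization (0.0758), with a robust variance prior (0.0554) and with the replicate number as a block (0.0653). The fit over single features lost it too (0.0563). The direction was kept in all of these.

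Slfn8, another long member known from developing thymocytes, had ratios of 2.83, 0.66 and 2.42 on IFN-gamma arrays 1, 2 and 3, against -0.43, -0.77 and -0.36 on Control arrays 1, 2 and 3. The pattern was that of Slfn9, with IFN-gamma array 2 well below the other treated arrays and still above every Control array. The means were 1.97 ± 1.15 in IFN-gamma neurons and -0.52 ± 0.22 in Control neurons (SD, n = 3 each), and the difference was 2.49 ± 0.54 (SE). It did not pass over all genes (limma, adjusted p = 0.172), with a 95% interval of the fold from 2.27 to 13.8. Slfn8 passed without IFN-gamma array 2, at 3.14 (limma, adjusted p = 0.00162). Slfn8 and Slfn9 are close relatives in sequence, and the probe sequences were not analysed here, so how much of each feature's signal comes from the other gene was not tested.

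Slfn5, whose human counterpart restricts herpes simplex virus, was measured by 2 features that gave different results. The feature annotated to AK138790 had ratios of 3.72, 2.43 and 3.59 on IFN-gamma arrays 1, 2 and 3, against 0.50, -0.13 and 0.02 on Control arrays 1, 2 and 3. The groups of this feature lay far apart, and its change was the largest among the 9 Schlafen features. It rose by 3.11 ± 0.37 (SE), which is 8.65-fold (limma over all features, adjusted p = 0.0171), and it was the single Schlafen feature of 9 that was called higher, against 0.978% of all features. The feature annotated to NM_183201 had ratios of 1.03, -0.03 and 1.41 on IFN-gamma arrays 1, 2 and 3, against -1.02, 0.77 and 0.00 on Control arrays 1, 2 and 3. Its groups overlapped, its difference was 0.89 (95% interval -0.41 to 2.19), and its value on Control array 3 was exactly 0, which may stand for a ratio that was not measured. The call of the first feature was lost with scale normalization (limma, adjusted p = 0.0621) and without any 1 array other than IFN-gamma array 2. Those adjusted p were 0.0787 and 0.106 without IFN-gamma arrays 1 and 3, and 0.0630, 0.0918 and 0.0905 without Control arrays 1, 2 and 3.

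The mean over both features of Slfn5 was 2.03 ± 0.72 in IFN-gamma neurons and 0.02 ± 0.29 in Control neurons (SD, n = 3 each). The difference of 2.001 ± 0.365 (SE) did not pass (limma, adjusted p = 0.0887), and the 95% interval of the fold was 2.18 to 7.35. It passed without IFN-gamma array 2, at 2.41 (limma, adjusted p = 0.00387), and with the NM_183201 feature left out for its exact 0, at 3.11 (0.0124). On Control array 1 the features lay on either side of a ratio of 0, at 0.50 and -1.02, so the gene mean near 0 in Control neurons averages features that disagree. Slfn5os, a long noncoding RNA gene on the opposite strand, shares 9333 bases of the locus with Slfn5. Its ratios were -0.25, 0.02 and -0.59 on IFN-gamma arrays 1, 2 and 3, against -1.03, -0.71 and -1.53 on Control arrays 1, 2 and 3. The groups of Slfn5os did not overlap, its difference was 0.82 ± 0.25 (SE), and it did not pass (limma, adjusted p = 0.425). Unlike Slfn5, its highest treated value was on IFN-gamma array 2.

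**Figure D2:**
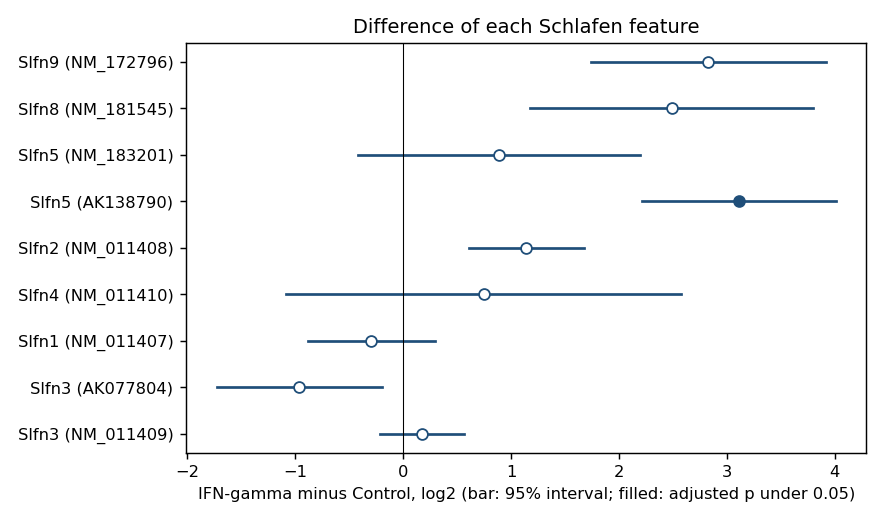
IFN-gamma minus Control difference on the log2 scale for each of the 9 Schlafen features, with 95% intervals as bars, the accession of the annotation in brackets, and filled points where the adjusted p over all features was under 0.05. The 2 features of Slfn5 stand at 3.11 and 0.89, and the 2 of Slfn3 at -0.96 and 0.18.

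Neither of the short members, Slfn2 and Slfn1, passed over all genes, and of these Slfn2 had groups that did not overlap. Slfn2, which keeps T cells quiescent and shields tRNA from cleavage in mice, had ratios of 1.40, 0.72 and 1.23 on IFN-gamma arrays 1, 2 and 3, against -0.30, 0.11 and 0.11 on Control arrays 1, 2 and 3. The lowest treated value was above the highest control value by more than the spread of the Control arrays. The means were 1.12 ± 0.35 in IFN-gamma neurons and -0.03 ± 0.23 in Control neurons (SD, n = 3 each), a difference of 1.14 ± 0.22 (SE) or 2.21-fold. Slfn2 did not pass over all genes (limma, adjusted p = 0.103), with a 95% interval of the fold from 1.54 to 3.17, and it passed without IFN-gamma array 2, at 1.34 (0.0199). Slfn1, the founding member, known for slowing the growth of lymphoid cells when overexpressed, had ratios of 0.01, -0.38 and -0.15 on IFN-gamma arrays 1, 2 and 3, against -0.37, 0.23 and 0.49 on Control arrays 1, 2 and 3. Its groups overlapped, and its difference of -0.29 (95% interval -0.87 to 0.29, adjusted p = 0.807 in limma) was within the spread of the Control arrays.

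Slfn3 and Slfn4, the members of intermediate length, did not pass. Slfn3, known from gut epithelium and T cells of rodents, had gene means of -0.69, -0.58 and -0.28 on IFN-gamma arrays 1, 2 and 3, against -0.29, -0.08 and 0.005 on Control arrays 1, 2 and 3. These groups touched, since IFN-gamma array 3 lay just above Control array 1. The difference was -0.39 ± 0.16 (SE, adjusted p = 0.603 in limma), and its 95% interval, -0.77 to -0.02, allows a level between 0.588 and 0.988 times that of Control neurons. The differences of the 2 features of Slfn3 had opposite signs, and whether they differ from each other was not tested. The one annotated to AK077804 had ratios of -1.66, -0.94 and -0.49 on IFN-gamma arrays 1, 2 and 3, against -0.39, -0.003 and 0.18 on Control arrays 1, 2 and 3, with no overlap and a difference of -0.96 ± 0.32 (SE, adjusted p = 0.483 in limma over all features). The one annotated to NM_011409 differed by 0.18 (95% interval -0.21 to 0.56), with overlapping groups.

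Slfn4, a myeloid member that activated macrophages regulate in mice, had ratios of 0.20, 0.00 and 0.00 on IFN-gamma arrays 1, 2 and 3, against 0.38, 0.16 and -2.58 on Control arrays 1, 2 and 3. The 2 treated values of exactly 0 may be ratios that were not measured, and Control array 3 alone lay far from the rest. The difference of 0.75 had a 95% interval from -1.07 to 2.57 (limma, adjusted p = 0.837). Without Control array 3 it was -0.20 (0.763), so the direction of Slfn4 rests on that array. Whether the differences of single members differ from each other was not tested.

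Slfn14, a relative known for its part in red cells and platelets, and Slfnl1, a Schlafen-like gene on chromosome 4, were also on the array and were not members. Their differences were 0.11 for Slfn14 and 0.32 for Slfnl1 (limma, adjusted p = 0.944 and 0.809), both with overlapping groups. Slfn10-ps is not analysed here.

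On IFN-gamma array 2 the 4 Schlafen genes without overlap lay nearer to the controls than on the other treated arrays. Relative to the mean of the Control arrays, Slfn9 was at 3.33, 1.72 and 3.44 on IFN-gamma arrays 1, 2 and 3, and Slfn8 at 3.35, 1.18 and 2.93. Slfn5 was at 2.35, 1.18 and 2.47, and Slfn2 at 1.42, 0.75 and 1.26. The 212 other genes called higher had medians of 2.33, 2.01 and 2.40 on these arrays. Of them 64.2% had their lowest treated value on array 2, as had all 4 Schlafen genes, against 41.5% of all genes. Genes with a control mean under -1, of which Slfn9 is one among 740, had medians of 0.85, -0.18 and 0.69 on the same arrays, and a median difference of 0.46 over all 3. Of these 740 genes 84.6% had their lowest treated value on array 2, and 11 were called, or 1.49%, all of them higher. The part of this array shift in the value of Slfn9 was not tested. Without IFN-gamma array 2, Slfn9, Slfn8, Slfn5 and Slfn2 all passed, against 2.51% of all genes called higher. The same 4 passed with array weights, against 1.45%. These weights were estimated from the scatter of the same values and were lowest for IFN-gamma array 2 (0.541). Both settings thus reduce the part of that array and are not separate support.

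**Figure D3:**
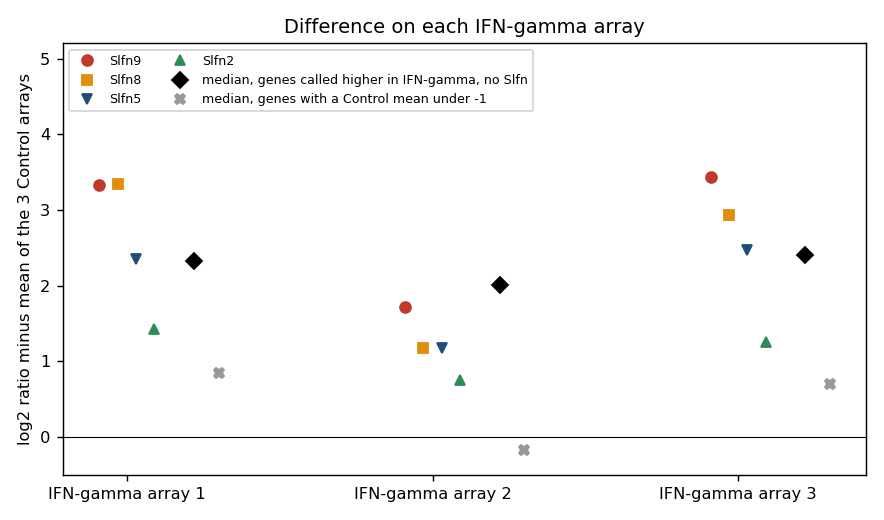
Log2 ratio on each IFN-gamma array minus the mean of the 3 Control arrays for Slfn9, Slfn8, Slfn5 and Slfn2, beside the median of the 212 other genes called higher and the median of the 740 genes with a Control mean under -1. The 4 Schlafen genes fall lowest on IFN-gamma array 2, where Slfn9 is at 1.72 and the median of the other called genes at 2.01.

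**Figure D4:**
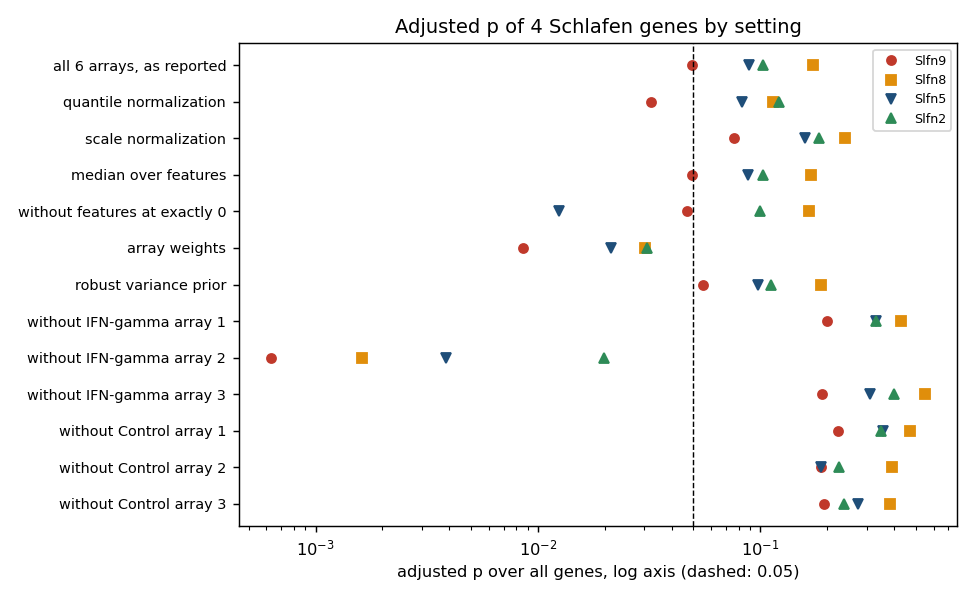
Adjusted p over all genes, on a log axis, for Slfn9, Slfn8, Slfn5 and Slfn2 in the reported comparison and under other settings, with the threshold of 0.05 as a dashed line. All 4 genes lie left of the line without IFN-gamma array 2 and with array weights, and none does without any other single array.

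Because Schlafen genes are known from immune cells, markers of such cells were measured beside them. Of 11 macrophage markers, 2 were called higher, against 1.12% of all genes. They were the complement genes C1qc at 1.53 ± 0.20 and C1qa at 1.64 ± 0.23 (SE; limma, adjusted p = 0.0211 and 0.0288). The groups did not overlap, with IFN-gamma above, for 5 of the 11, against 8.08% of all genes. The median ratio of the macrophage list was 0.65, 0.05 and 0.77 on IFN-gamma arrays 1, 2 and 3, against -0.38, -0.28 and -0.05 on Control arrays 1, 2 and 3, so it too was lowest among treated arrays on array 2. At an unadjusted p under 0.05, 6 of the 11 were higher and 0 lower (limma), against 5.27% and 2.68% of all genes. The 9 markers that were not called had differences from -0.46 for the mannose receptor gene Mrc1 to 0.90 for the leukocyte gene Ptprc. Cd68 and Csf1r are not analysed here, and signal levels, which would show a marker at background, are not analysed here. The macrophage count was 4 without IFN-gamma array 2 and 0 without any other single array. None was called among 7 granulocyte, 8 T cell, 6 satellite and Schwann cell, 7 fibroblast or 7 endothelial markers, in either direction (limma). At an unadjusted p under 0.05, 1 granulocyte marker was higher, 1 satellite and Schwann cell marker was lower, and 0 of the other 3 lists' markers stood out. The T cell genes Cd3d (0.31) and Cd8a (-0.23) had the lowest p of their list, and the medians of that list were -0.08 to 0.23 on IFN-gamma arrays and 0.10 to 0.24 on Control arrays. The fibroblast list had medians of 0.53, -1.37 and -0.06 on IFN-gamma arrays 1, 2 and 3. On Control arrays 1, 2 and 3 they were 0.17, -0.80 and -0.05. For satellite and Schwann cells the medians were -0.20, -1.05 and -0.19, against -0.23, -0.63 and -0.42. In both groups these lists and the endothelial list were lowest on array 2, and the granulocyte and T cell lists were not. The part of macrophages or of these other cells in the Schlafen values was not tested.

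The genes that carry the IFN-gamma signal and those that act beside Schlafen proteins were set next to the family. The 15 measured genes of the receptor and the JAK-STAT route had a median difference of 0.46. Of these, 5 were called higher and 0 lower, against 1.12% and 0.021% of all genes. They were the transcription factors Irf8 (3.91 ± 0.14), Irf1 (2.29 ± 0.17) and Irf9 (1.49 ± 0.17) and the inhibitors Usp18 (4.72 ± 0.26) and Socs1 (2.96 ± 0.19; SE, n = 3 each). Irf1 and Irf9 were lowest among treated arrays on IFN-gamma array 2, whereas Irf8 and Socs1 were not, with 3.32, 3.41 and 3.51 for Irf8 and 2.87, 3.07 and 3.19 for Socs1 on IFN-gamma arrays 1, 2 and 3. The 14 measured genes by which interferons restrict translation and foreign RNA had a median difference of 1.97. Of these, 10 were called higher and 0 lower, against 1.12% and 0.021% of all genes. Ifit1, which binds viral RNA caps, rose by 4.56 ± 0.22, Samd9l, an antiviral factor, by 2.98 ± 0.24, Oas1a, which makes the activator of an RNA-cutting enzyme, by 2.63 ± 0.27, and Isg20, an exonuclease, by 2.55 ± 0.19 (SE). The others were Oasl2, Oasl1, Oas1b, Ifit3, Eif2ak2 and Ifit2, at 1.42 to 2.22.

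Genes linked to the known roles of Slfn2 and Slfn1 did not pass. Over all genes 1.12% were called higher and 0.021% lower (limma), so in lists this small 0 called is near that share. At an unadjusted p under 0.05 the shares of all genes were 5.27% higher and 2.68% lower. None of 5 genes of tRNA cleavage and its protection was called in either direction (limma; 0 at an unadjusted p under 0.05), and their median difference was 0.05. The lowest p were those of Rnh1, the inhibitor of the tRNA-cutting enzyme angiogenin, at 0.23 ± 0.14, and of the tRNA methylase gene Trdmt1, at 0.21 ± 0.15 (SE). None of 16 genes of cell cycle entry and quiescence was called (limma; 0 higher and 1 lower at an unadjusted p under 0.05), with a median of -0.11. The lowest p there were those of the inhibitor Cdkn1a, at -0.54 ± 0.21, and the cyclin Ccnd2, at -0.59 ± 0.29 (SE).

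The genes whose profile over the 6 arrays was nearest to that of Slfn9, by root mean square distance after subtracting each gene's own mean, were AU020206 (0.16 log2 units), Phf11d (0.23), the class II gene H2-Ab1 (0.25), Slfn8 (0.27) and the guanylate-binding protein gene Gbp5 (0.29). Slfn8 thus stood 4th among all other genes and Slfn5 42nd. H2-Ab1, which encodes a chain of the antigen-presenting class II molecule, had ratios of 2.68, 1.33 and 2.69 on IFN-gamma arrays 1, 2 and 3, against -0.06, -0.22 and -0.15 on Control arrays 1, 2 and 3. It shared with Slfn9 the lower value on IFN-gamma array 2 and the close Control arrays. Since H2-Ab1 was picked for its nearness to Slfn9 on these same arrays, this likeness follows from the choice.

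In RefSeq order along mouse chromosome 11 the cluster's protein-coding genes run Slfn5, Slfn9, Slfn8, Slfn2, Slfn1, Slfn4, Slfn3 and Slfn14 (GRCm38.p6). Slfn5 starts at 82951349 and Slfn3 ends at 83215154, so the 7 members span 264 kb. The 4 members whose groups did not overlap stand next to each other, from Slfn5 to Slfn2.

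**Figure D5:**
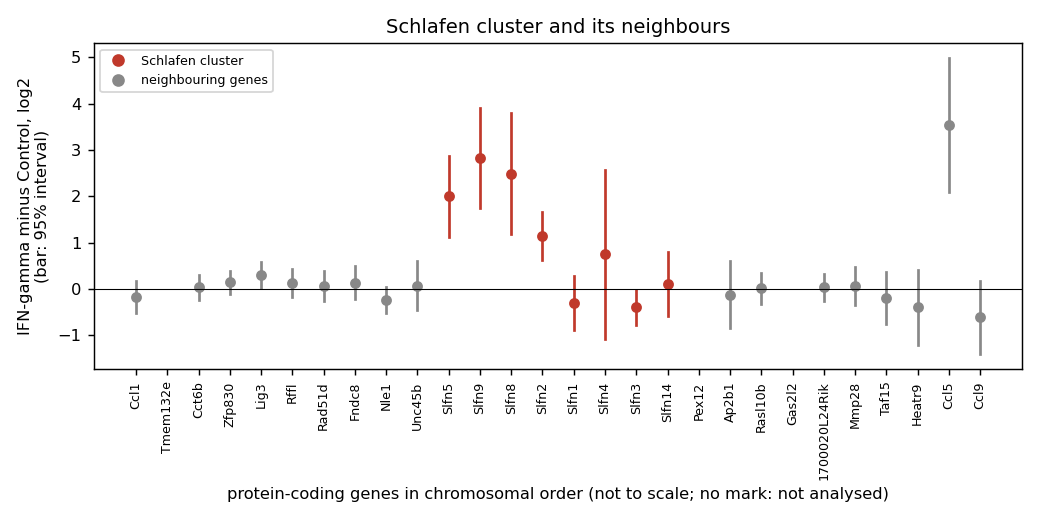
IFN-gamma minus Control difference on the log2 scale, with 95% intervals as bars, for the Schlafen cluster and the 10 protein-coding genes on each side, in RefSeq order and not to genomic distance. Slfn5, Slfn9, Slfn8 and Slfn2 stand together between 1.14 and 2.83, and among the neighbours Ccl5 stands apart at 3.54.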

How the data were processed

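The authors deposited 1 log ratio per feature and array, read here as log2 of Cy5 neuron RNA over Cy3 ganglion RNA. Image analysis used Agilent Feature Extraction, per the submitters' processing notes, and its version, background correction and dye normalization are not given in the sources used here. Array medians were 0 to 0.005, so the deposited values were centred within arrays, and dyes were not swapped. Groups were taken from the labels of the Cy5 channel, because all array titles name IFN. The platform annotation named 1 gene for 33653 of 45220 features, with 33517 symbols updated through RefSeq (GRCm38.p6). A gene's value was the mean over its features.

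IFN-gamma was compared with Control in limma 3.58.1 (R 4.3.3, lmFit and eBayes, two-sided) across all 19087 genes, and separately across all 33653 features, with Benjamini-Hochberg adjustment and a threshold of 0.05. The fit was tested on simulated data. Alternatives were 13 settings, 6 of which leave out 1 array. Promoters were aligned globally with Biopython 1.88. The members and the 11 gene lists (116 entries, 106 measured) were chosen with earlier results of these data known. Beside the members, the genes named are the other Schlafen genes, list members past the threshold (or the lowest p in lists with none), the 5 nearest profiles and neighbours of the locus; Mrc1, Ptprc and Ccl5 were named after their values were seen. Same-numbered arrays had deviations correlated at 0.06, 0.31 and -0.03. The numbers were not taken as pairs in the reported fit, but whether they mark pairs is not settled.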

Additional observations from a re-analysis of the deposited data

How the results depend on the processing

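The 7 Schlafen differences kept their direction under all alternatives, except Slfn4, which was -0.20 without Control array 3. Slfn1, Slfn3 and Slfn4 did not pass under any alternative that gave them a value. The count of Schlafen genes called higher was 1 as reported, 0 with scale normalization, a robust variance prior or the replicate block, 2 without features at exactly 0, 4 with array weights, and 0 to 4 when single arrays were left out. Slfn9 did not pass with scale normalization (2.93), the robust prior (2.83) or the replicate block (2.83, adjusted p = 0.0653). Array weights brought Slfn2 (1.21), Slfn5 (2.20) and Slfn8 (2.84) past the threshold, and leaving out features at exactly 0 did so for Slfn5 (3.11), which then rests on 1 feature, and gave no value for Slfn4. Leaving out single arrays gave 1.004 to 1.34 for Slfn2, -0.20 to 1.28 for Slfn4, 1.76 to 2.41 for Slfn5, 2.06 to 3.14 for Slfn8 and 2.52 to 3.38 for Slfn9. Over all genes, 213 were called higher and 4 lower. Without single arrays this was 112 to 480 higher and 1 to 28 lower, most of either without IFN-gamma array 2, and the lower calls were 7 with quantile normalization, 12 with array weights and 2 with the replicate block. The macrophage count, 2 as reported, was 1 with the replicate block, 3 with array weights and 0 to 4 without single arrays. Over all alternatives the JAK-STAT count of 5 ran from 4 to 6 and the translation and foreign RNA count of 10 from 8 to 13, and the other lists stayed at 0. Fits without an array hold fewer samples; the cause of the other changes was not tested. Only the arrays numbered 2 correlated best with their own number. With 3 arrays a group, this cannot settle whether the replicate number marks pairs. Signal and background were not analysed, so ratios near 0, as for Slfn4, can come from RNA below background in both channels.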

Other observations

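The genes around the Schlafen cluster on chromosome 11 were examined beside its members. Of the 20 protein-coding genes within 10 places on either side, 17 were measured. None was called (limma), against 1.12% of all genes called higher and 0.021% lower. At an unadjusted p under 0.05, 2 were higher, against 5.27% of all genes. The differences of the 17 genes ran from -0.61 to 3.54, with a median of 0.04. The groups did not overlap in 3 with IFN-gamma above, against 8.08% of all genes, and in 2 with IFN-gamma below, against 5.58%. The 9 measured genes on the Slfn5 side, Unc45b the nearest among them, lay between -0.24 and 0.30. On the other side Ccl5, a chemokine gene known as an interferon and NF-kB target, stood apart at 3.54 (95% interval 2.09 to 4.98; limma, adjusted p = 0.0663), with group means of 2.93 in IFN-gamma neurons and -0.61 in Control neurons.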
